A study of Mus musculus with 24 samples.

Results

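The respiratory chain and ATP synthase were examined as 99 protein-coding genes matched by symbol in RNA sequencing of HY19636, an established line of mouse pancreatic ductal adenocarcinoma (PDAC) cells. Of these, 86 were nuclear genes and 13 were mitochondrial genes, and 92 reached at least 1 FPKM (fragments per kilobase, a length- and depth-scaled level) in at least 3 of 24 libraries. The 92 comprised 79 nuclear members and 13 mitochondrial members among 12061 genes that passed the same filter and 54532 genes in the table. By complex, the nuclear members that passed were 36 of complex I, 4 of complex II, 9 of complex III, 13 of complex IV and 17 of complex V. The mitochondrial members were 7, 1, 3 and 2 genes of complexes I, III, IV and V. The 7 matched members that did not pass were Ndufa4l2, Cox4i2, Cox6b2, Cox7b2, Cox8b, Cox8c and a second entry under the symbol Atp5o. Symbols alone set the membership, so Ndufa4, now assigned to complex IV, was counted under complex I, and Ndufab1 was not included.

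Phgdh, which encodes the entry enzyme of serine synthesis from glucose, was intact in wild-type (WT) cells and knocked out in KO cells. Each genotype was grown alone (monoculture) or with hepatocytes (coculture), in medium that held serine and glycine or lacked both. These factors made 8 groups of 3 libraries. All groups came from that 1 line. The edited site of Phgdh, the number of KO clones and the separation of cancer cells from hepatocytes were not given in the sources used here. Nothing states that replicates were separate cultures, so p-values reflect spread among these libraries and may be technical.

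Complex I takes electrons from NADH and complex II takes them from succinate, and both pass them through ubiquinone to complex III. Complex III hands them to complex IV by way of cytochrome c, and the proton gradient built along the way drives the ATP synthase, complex V. Complexes I, III, IV and V are built from subunits of both the nuclear and the mitochondrial genome, whereas complex II is wholly nuclear.

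Libraries held 15740081 to 23479425 reads assigned to genes. Phgdh transcripts were present in KO libraries and lower than in the matching WT group in 3 of 4 settings, for example 372, 548 and 529 FPKM against 934, 929 and 903 in nutrient-replete monocultures (log2 change -0.95 ± 0.12 SE, adjusted p = 1.85e-06). In monocultures without serine and glycine, Phgdh was at 616.0, 732.2 and 737.4 FPKM in KO and 788.8, 818.0 and 794.5 in WT, a difference short of the threshold (-0.21 ± 0.12, adjusted p = 0.1145), so the transcript does not separate the labels firmly there. Among 18 hepatocyte markers, 17 did not pass the filter and Alb reached at most 0.131 FPKM, with 10 at 0 in all libraries, while Hnf4a was at 13.4 to 40.3 FPKM. The ductal markers Krt8, Krt18, Krt19 and Cdh1 were expressed throughout, and Epcam had a median of 0.478 FPKM. Replicate 1 of the KO monocultures with serine and glycine stood apart from its group. Replicates 1 and 2 of the KO cocultures without serine and glycine lay far apart from each other.

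Nuclear subunit transcripts were higher in one group than in the rest, the KO monocultures without serine and glycine. Their summed share of reads there was 0.864, 0.970 and 0.953%, against 0.570 to 0.752% in the 21 libraries of the other groups, so the ranges did not overlap. The mitochondrial members together held 1.77 to 2.83% of reads, and the KO monocultures without serine and glycine, at 2.31, 1.88 and 1.98%, lay inside that range. Each library was also summarised by the median deviation of the members from their own means on the log2(FPKM + 1) scale. For nuclear members this median was 0.34, 0.53 and 0.42 in the KO monocultures without serine and glycine and ran from -0.27 to 0.12 in the other libraries.

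**Figure D1:**
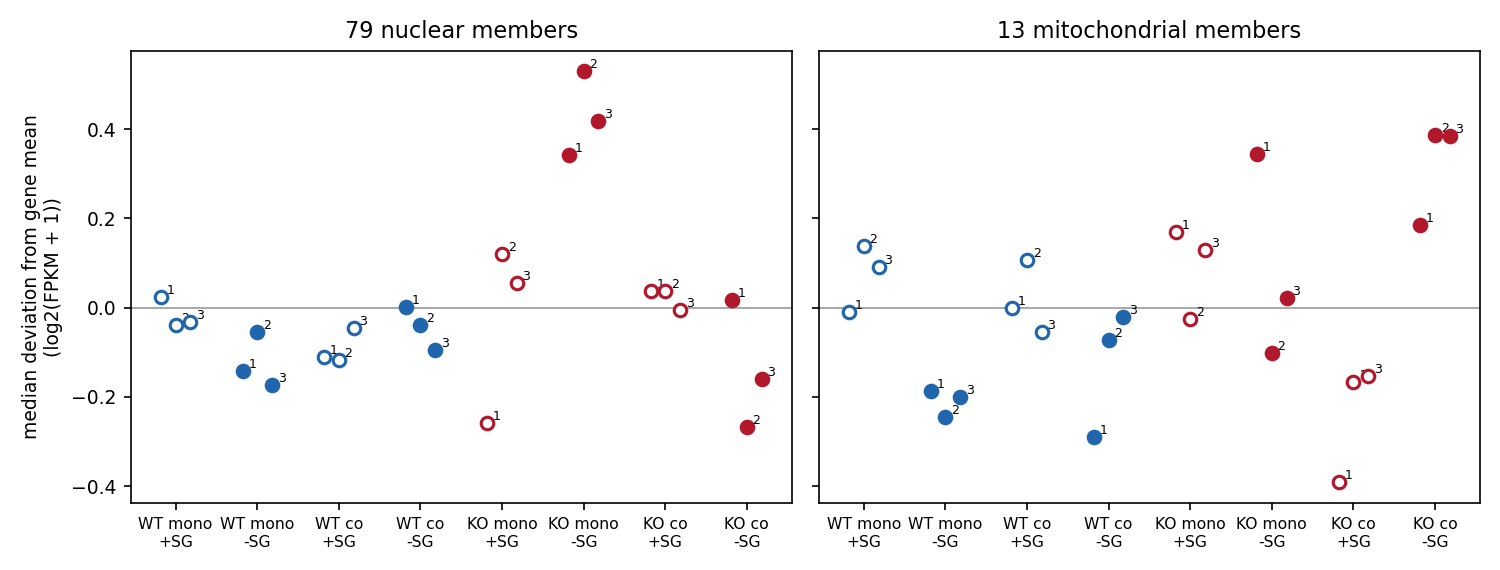
Median deviation of the members from their 24-library means (log2(FPKM + 1), vertical axis) in each library, grouped along the horizontal axis, for nuclear (left) and mitochondrial (right) members; blue is WT, red is KO, filled points lack serine and glycine (-SG), and small digits are replicate numbers. The 3 KO monocultures without serine and glycine lie at 0.34 to 0.53 among nuclear members, above the other 21 libraries, while their mitochondrial members overlap with other groups.

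In KO monocultures, nuclear transcripts of each complex included members that rose on removal of serine and glycine. Of 79 nuclear members, 47 rose and 11 fell, with a median log2 change of 0.52, where 70.8% of all tested genes were called, 36.2% higher and 34.5% lower, with a median near 0. Higher calls numbered 23 of 36 in complex I, 3 of 4 in complex II, 4 of 9 in complex III, 9 of 13 in complex IV and 8 of 17 in complex V. The median changes of the nuclear members were 0.58, 0.71, 0.31, 0.39 and 0.65 for complexes I to V. Falls numbered 5, 0, 0, 3 and 3 in the same order.

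The same withdrawal gave 0 calls among 79 nuclear and 13 mitochondrial members in WT monocultures by limma, where 1.63% of all tested genes were called, 1.37% higher and 0.257% lower. At an unadjusted p under 0.05 the counts were 8 nuclear and 5 mitochondrial members, and the median nuclear change was -0.10. Without overlap between the libraries, 25 nuclear and 9 mitochondrial members were lower and 0 were higher, beside 27.8% of all genes in either direction. A fit with these 2 groups alone called 2 members. In WT cocultures the count was also 0, with 2 nuclear and 2 mitochondrial members at an unadjusted p under 0.05 and 0.738% of all genes called, 0.439% higher and 0.298% lower. The test of the difference between KO and WT monocultures called 43 nuclear members higher and 5 lower, a setting in which 61.2% of all genes were called, 31.4% higher and 29.8% lower.

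**Figure D2:**
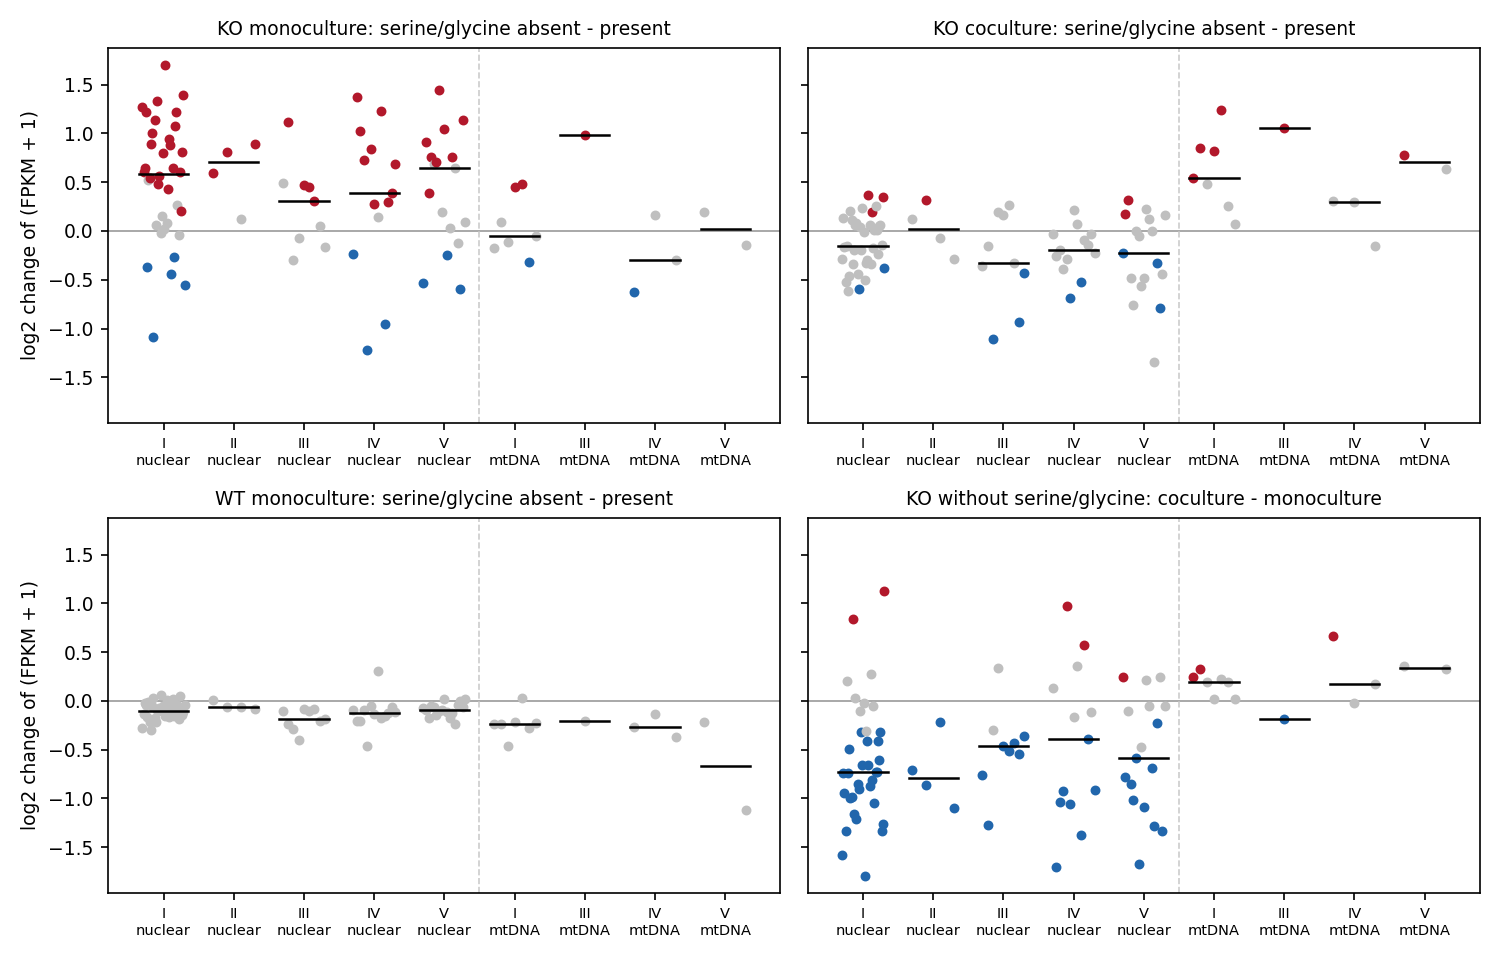
Log2 change of (FPKM + 1) for each member (points), sorted by complex and genome along the horizontal axis, in 4 comparisons; red and blue points passed an adjusted p of 0.05 as higher and lower, grey points did not, and bars are medians. In KO monocultures the nuclear medians lie between 0.31 and 0.71, and no member is coloured in the WT panel.

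Complex I gave the largest single rise. Ndufb6, an accessory subunit of the membrane arm, was at 7.34, 21.4 and 19.3 FPKM with serine and glycine and at 41.3, 56.9 and 52.6 without (log2 change 1.70 ± 0.29, adjusted p = 2.76e-05). Replicate 1 with serine and glycine was the lowest, and over all alternatives run, leaving out that library among them, the change stayed between 1.25 and 1.97. Of its 50-base stretches, 31.6% also occur in transcripts of the gene Smim27, so reads could be split there. Ndufv2, an iron-sulphur subunit of the NADH-oxidising module, went from 23.8, 22.3 and 23.4 to 65.7, 61.1 and 61.2 FPKM (1.40 ± 0.06, adjusted p = 1.10e-13). Ndufa9 went from 23.3, 21.9 and 21.4 to 54.0, 61.2 and 57.0 FPKM (1.33 ± 0.06). In these 3 genes the KO monocultures without serine and glycine were above all other libraries.

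Complex I also held members that fell, among them Ndufa6, an accessory subunit, from 39.6, 41.0 and 34.1 to 13.6, 22.6 and 17.0 FPKM (-1.09 ± 0.15, adjusted p = 1.59e-06), while the WT groups held 23.3 to 34.5 FPKM.

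Complex II, the succinate dehydrogenase that also serves the citric acid cycle, rose in 3 of its 4 genes. Sdha, the flavoprotein, went from 40.8, 35.9 and 32.3 to 54.0, 56.5 and 55.5 FPKM (0.60 ± 0.06, adjusted p = 6.53e-08). Sdhb, the iron-sulphur subunit, went from 36.2, 34.9 and 33.3 to 59.0, 61.8 and 64.8 FPKM (0.81 ± 0.07). Sdhd, a membrane anchor, went from 38.0, 64.3 and 53.5 to 96.6, 95.3 and 93.6 FPKM (0.89 ± 0.15). Sdhc, the partner anchor, was at 26.5, 31.9 and 29.9 with and 32.7, 32.7 and 30.9 without serine and glycine, and its groups overlapped (0.12 ± 0.07, adjusted p = 0.110). Anchor and catalytic genes thus gave changes of 0.12 to 0.89 on the log2 scale, and differences among the 4 genes were not tested.

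Complex III had the lowest median among nuclear members. Uqcr10 (1.12), Uqcrc1 (0.47), Uqcrc2 (0.45) and the Rieske iron-sulphur protein Uqcrfs1 (0.31) rose, and Uqcrfs1 had an adjusted p of 0.0455. Without replicate 1 of the KO monocultures with both nutrients, Uqcrfs1 was at 0.13 with an adjusted p of 0.337, and without replicate 2 or 3 of the deprived ones its adjusted p was 0.12 or 0.144. With the replicate block its adjusted p was 0.0595. Cyc1, the cytochrome c1 gene, had a change of 0.49 with an adjusted p of 0.0611. The other 4, Uqcrh, Uqcrb, Uqcrq and Uqcr11, lay between -0.29 and 0.05. These complex III genes were chosen for mention after their values were seen.

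Complex IV split among its isoform genes. Cox5a, a nuclear subunit of cytochrome c oxidase, went from 19.0, 31.6 and 31.2 to 65.6, 74.4 and 72.3 FPKM (1.38 ± 0.14, adjusted p = 3.19e-08). Cox7a2 went from 47.3, 59.4 and 56.5 to 120.2, 135.7 and 128.8 FPKM (1.23 ± 0.09). Cox7a2l, whose product joins complexes III and IV in supercomplexes, moved the other way, from 380.7, 370.8 and 335.4 to 186.3, 186.0 and 186.5 FPKM (-0.95 ± 0.05, adjusted p = 3.01e-12). The Cox7a2l libraries without serine and glycine were below all 21 others, which lay at 261.0 FPKM or above.

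The remaining isoform pairs differed in level. Cox4i1 fell slightly, from 226.7, 220.2 and 203.8 to 160.6, 194.5 and 197.8 FPKM (-0.24 ± 0.08), and without replicate 1 of the deprived libraries the change was -0.14 with an adjusted p of 0.0795. Its partner Cox4i2 never exceeded 0.506 FPKM. Cox6a1 was at 167.0, 355.6 and 320.5 with and 304.8, 539.1 and 526.1 FPKM without serine and glycine (0.73 ± 0.25, adjusted p = 0.0154), and its groups overlapped. Without replicate 1 of the nutrient-replete libraries Cox6a1 was at 0.39 (adjusted p = 0.135), and without deprived replicate 2 or 3 its adjusted p was 0.0747 or 0.0696. Cox6a2, known as the heart and muscle form, was near the detection limit, at 1.62, 3.39 and 3.05 and then 0.251, 0.611 and 0.830 FPKM (-1.22 ± 0.21). With a pseudocount of 0.1 that change was -2.12, and with limma voom on recovered reads it was -2.36. Cox7a1, the other muscle form, had 0.229 to 1.52 FPKM in the 6 KO monocultures and did not pass the test.

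Complex V showed an isoform pattern of its own. Atp5g1, Atp5g2 and Atp5g3 encode the same mature c subunit, which forms the rotor ring, behind different import sequences. Atp5g1 went from 8.92, 13.4 and 12.2 to 28.6, 35.3 and 34.8 FPKM (1.45 ± 0.12, adjusted p = 2.66e-09). Atp5g3 went from 16.8, 39.7 and 34.4 to 49.8, 65.3 and 65.6 FPKM (1.04 ± 0.25), or 0.68 without replicate 1 of the former. Atp5g2 was at 46.1, 101.1 and 101.8 with and 79.6, 96.3 and 93.9 FPKM without serine and glycine, and its groups overlapped (0.20 ± 0.22, adjusted p = 0.436), and 38.4% of its 50-base stretches also occur in other genes, mainly the pseudogene Gm10175. Atp5g1 made up 18.1, 17.9 and 17.9% of the summed FPKM of the 3 genes without serine and glycine, against 12.4, 8.70 and 8.22% with both. Atp5a1, which encodes the catalytic-head alpha subunit, fell from 109.5, 123.6 and 120.5 to 77.3, 82.5 and 83.0 FPKM (-0.54 ± 0.05, adjusted p = 1.07e-08).

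**Figure D3:**
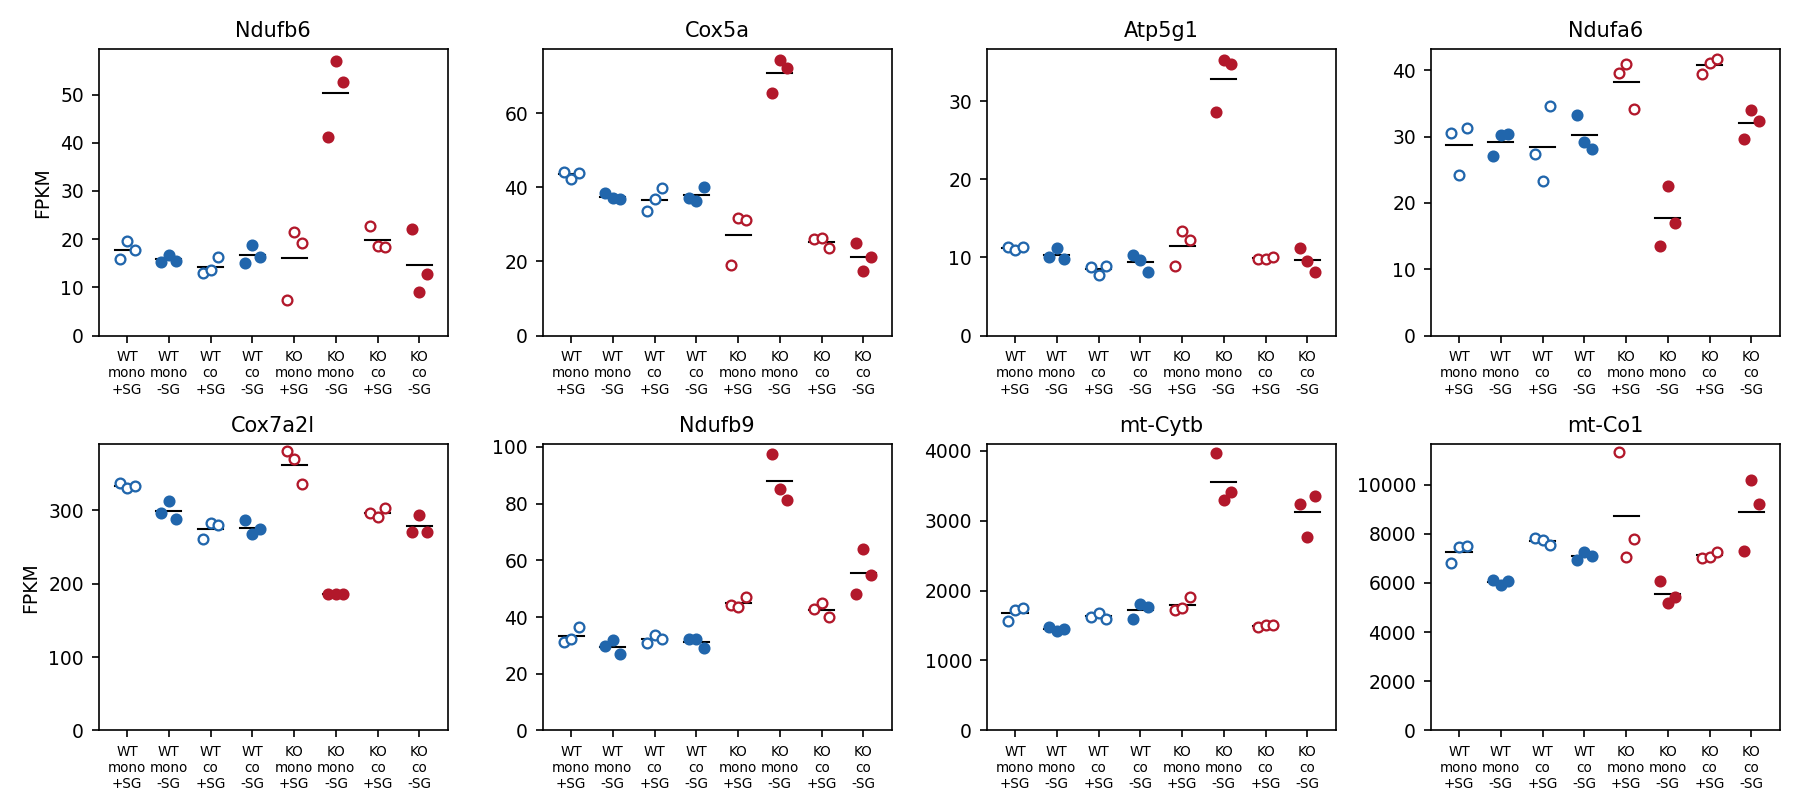
FPKM in every library (points; bars are group means; vertical axes start at 0) for 6 nuclear and 2 mitochondrial members in the 8 groups; blue is WT, red is KO, filled points lack serine and glycine. Ndufb6, Cox5a and Atp5g1 peak in KO monocultures without serine and glycine, where Cox7a2l is lowest at 186 to 187, and mt-Cytb is high in both KO groups without serine and glycine.

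Several technical quantities moved among the same libraries. Nuclear members were short, with a median gene length of 1675 bases against 3850 over all tested genes. The median deviation of 250 other protein-coding genes shorter than 1000 bases was -0.20, 0.16 and 0.06 in the KO monocultures with serine and glycine and -0.17, 0.03 and 0.03 in those without. After a correction on gene length, 52 nuclear members were higher and 10 lower. Without replicate 1 of both groups, 40 were higher and 10 lower. The summed FPKM of the ductal markers was 1641 to 1877 with and 4398 to 4599 without serine and glycine, and its part in the result was not tested. Single markers took both signs in the KO minus WT difference of the withdrawal response in monocultures. Sox9 was at 2.38, Krt8 at 2.22, Krt7 at 1.325, Krt18 at 1.27 and Krt19 at 0.50 on the log2 scale. Cdh1 was at -0.30 and Muc1 at -3.65.

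In KO cells deprived of serine and glycine, nuclear subunit transcripts were lower in coculture with hepatocytes than in monoculture. Between KO coculture and KO monoculture without serine and glycine, 55 of 79 nuclear members were lower and 5 higher, with a median of -0.65, where 71.3% of all genes were called, 35% higher and 36.3% lower. Lower calls numbered 27 of 36, 4 of 4, 7 of 9, 7 of 13 and 10 of 17 in complexes I to V. Ndufb6 was at 22.1, 8.96 and 12.7 FPKM in coculture against 41.3, 56.9 and 52.6 in monoculture (-1.79 ± 0.29, adjusted p = 1.50e-05). Cox5a was at 24.9, 17.4 and 21.1 FPKM against 65.6, 74.4 and 72.3 (-1.71 ± 0.14, adjusted p = 1.33e-09). For both genes the groups did not overlap.

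Cox7a2l, which had fallen in KO monoculture, was higher in coculture, at 271.0, 294.1 and 270.8 FPKM against 186.3, 186.0 and 186.5 (0.58 ± 0.05, adjusted p = 5.21e-09). The comparison shares its monoculture libraries with the withdrawal comparison, so the opposite signs are not independent of each other. Summed hepatocyte markers, mostly Hnf4a, were at 38.0 to 41.4 FPKM in these cocultures and 18.3 to 20.05 in the monocultures, and their part in the result was not tested. Hnf4a was at 13.4 FPKM or more in every library, those grown without hepatocytes included, so the sum does not measure hepatocytes alone. Alb was at 0.131 FPKM or less in every library. Fewer cells of a type and less RNA per cell cannot be told apart in such bulk libraries.

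Within coculture, the nuclear response to withdrawal in KO cells was small and mixed. Of 79 nuclear members, 6 rose and 10 fell (median -0.15), where 29.9% of all genes were called, 15.5% higher and 14.4% lower. Of the 47 nuclear members that rose in KO monoculture, 6 rose in coculture, 3 fell and 38 were not called. The test of the difference between the coculture and monoculture responses called 50 nuclear members lower and 5 higher, where 57.7% of all genes were called, 27.9% higher and 29.8% lower. Ndufv2 (0.35), Ndufb9 (0.37), Sdhb (0.32) and Atp5c1 (0.32) were among the rises, and Ndufb9 lost its call when the groups were fitted alone (adjusted p = 0.0683). The largest falls were those of Uqcr11, an accessory subunit of complex III, from 48.5, 44.7 and 40.7 to 39.6, 11.9 and 17.2 FPKM (-1.10 ± 0.36, adjusted p = 0.0293), and of Uqcrh, an acidic hinge subunit, from 58.7, 57.5 and 54.5 to 37.5, 25.3 and 26.6 FPKM (-0.93 ± 0.17). The Uqcr11 call was lost when any KO coculture library other than replicate 1 of the deprived group was left out, with adjusted p from 0.0536 to 0.182.

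The number and balance of these coculture calls depended on single libraries and on the processing. The member count was 22 in all 24 libraries, 48 without replicate 1 of the KO cocultures lacking serine and glycine and 14 without their replicate 2. Quantile normalization gave 8 nuclear rises and 7 falls, and the gene length correction gave 13 and 9. The 250 short genes had median deviations of 0.03, -0.27 and -0.12 in replicates 1 to 3 of that group, and their part in the result was not tested.

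Genotype without nutrient stress gave calls in both directions. In monocultures with serine and glycine, 10 nuclear members were higher and 13 lower in KO than in WT (median -0.01), where 42.7% of all genes were called, 21.5% higher and 21.1% lower, and no mitochondrial member passed the limma test at an adjusted or an unadjusted p under 0.05. In cocultures with serine and glycine, 15 were higher and 10 lower, where 43.9% of all genes were called, 21.8% higher and 22% lower, and quantile normalization turned this split to 13 and 14. With mitochondrial members included the calls numbered 26, against 51 with the 2 groups fitted alone and 42 without replicate 1 of both KO monoculture groups. Without serine and glycine, 51 were higher and 11 lower in monoculture (73.6% of all genes called, 37.4% higher and 36.3% lower). In coculture 13 were higher and 17 lower (53.6% of all genes called, 26.3% higher and 27.4% lower), or 12 and 25 after quantile normalization.

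A few members differed between the genotypes in the same direction in all 4 settings. Higher in KO were Ndufb9, Ndufs8, Sdha, Sdhc, Atp5j, Atp5j2 and Atp5s, 7 of 92 members beside 7.68% of all tested genes. Lower were Ndufb5 and Atp5a1, 2 members beside 8.19% of all genes. With serine and glycine present, Atp5s (adjusted p = 0.0563) and Sdha (adjusted p = 0.0823) lost the monoculture call when those groups were fitted alone. Ndufb5 lost its coculture call with both nutrients without replicate 2 or 3 of the KO or replicate 1 or 3 of the WT libraries, with adjusted p from 0.0502 to 0.129. Atp5j2, the f subunit of the ATP synthase membrane part, was at 13.1, 13.8 and 15.8 FPKM in WT and 25.9, 24.03 and 22.4 in KO when grown alone with both nutrients (0.72 ± 0.07, adjusted p = 7.38e-08). Across the 8 groups the highest WT library had 16.6 and the lowest KO library 22.4 FPKM. With the number of clones unknown, clone and genotype cannot be told apart.

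Coculture gave fewer calls where serine and glycine were present or the cells were WT. WT cocultures with both nutrients had 5 nuclear members higher and 15 lower than monocultures, where 31.2% of all genes were called, 16.3% higher and 14.9% lower, and 2 and 18 after quantile normalization. WT cocultures without both had 6 higher and 5 lower, where 28.1% of all genes were called, 14.9% higher and 13.1% lower, and 4 and 6 after quantile normalization. KO cocultures with both nutrients had 3 higher and 12 lower, where 40% of all genes were called, 20.1% higher and 19.9% lower. Leaving out replicate 2 of the WT cocultures or of the WT monocultures reduced the 20 calls with both nutrients to 11 or 12. Leaving out replicate 3 of the WT monocultures reduced the 12 calls without both, 1 of them mitochondrial, to 5.

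Ndufv3, a small accessory subunit beside the NADH site, was higher in coculture in each of the 4 settings. It was at 15.6, 12.7 and 13.4 FPKM in WT monocultures and 22.3, 22.8 and 26.1 in WT cocultures with serine and glycine (0.74 ± 0.11, adjusted p = 1.91e-05). In KO cells without both nutrients it was at 7.68, 9.07 and 9.57 in monoculture and 24.7, 18.9 and 17.7 FPKM in coculture (1.12 ± 0.11, adjusted p = 1.16e-08). Ndufs8, an iron-sulphur subunit, was lower in coculture in the same 4 settings, by 0.17 to 0.47 on the log2 scale. It was the 1 nuclear member whose coculture effect with both nutrients differed between KO and WT (0.30 ± 0.07, adjusted p = 0.00901), where 10.4% of all genes were called, 4.98% higher and 5.39% lower. The gene length correction brought that difference to an adjusted p of 0.0579.

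The 13 mitochondrial members fell into a high and a low set. The high set of 7 genes, mt-Nd1, mt-Nd2, mt-Nd4, mt-Nd5, mt-Nd6, mt-Co1 and mt-Cytb, had mean levels of 903.7 to 7301 FPKM. The other 6 had mean levels of 2.53 to 55.8 FPKM. Of the 50-base stretches of mt-Co2, mt-Co3, mt-Atp6, mt-Nd4l and mt-Nd3, 98.0 to 100% also occurred in annotated transcripts of other genes, chiefly unprocessed pseudogenes at chr1:24611535-24616197. The share was 62.2% for mt-Nd4, 51.1% for mt-Co1 and under 10% for the rest. mt-Atp8, at 227 reads over 24 libraries, shared none, but 43 of its bases overlap mt-Atp6 on the same strand. The table's values for those 6 low genes cannot be read as transcript abundance where reads could be split between copies or genes, and how such reads were counted was left unstated in the sources used here.

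**Figure D4:**
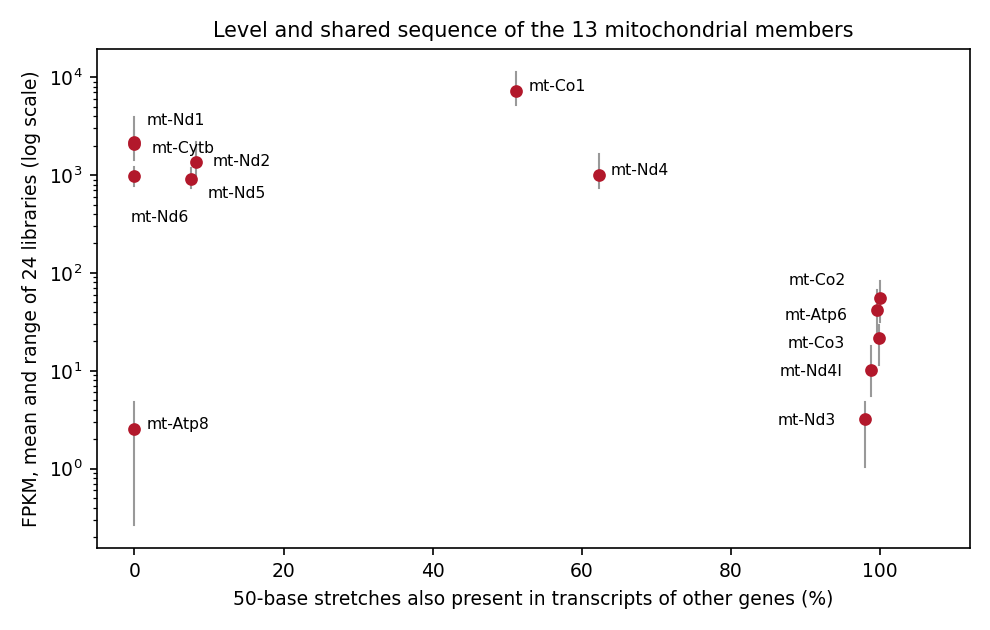
FPKM of each mitochondrial member (points are means and lines are ranges over 24 libraries, log scale on the vertical axis) against the percentage of its 50-base stretches also present in annotated transcripts of other genes. The 5 genes at 98.0 to 100% lie below 100 FPKM, mt-Atp8 is low without shared stretches, and mt-Cytb, mt-Nd1 and mt-Nd6 share 0%.

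The sequences show a low gene that shares nearly all of its bases and mt-Cytb, which shares none. Capitals mark bases that lie in no 50-base stretch shared with another annotated gene (GENCODE transcripts of GRCm38, plus strand, chrM:9877-10173 for mt-Nd4l and the first 200 bases of chrM:14145-15288 for mt-Cytb).
mt-Nd4l: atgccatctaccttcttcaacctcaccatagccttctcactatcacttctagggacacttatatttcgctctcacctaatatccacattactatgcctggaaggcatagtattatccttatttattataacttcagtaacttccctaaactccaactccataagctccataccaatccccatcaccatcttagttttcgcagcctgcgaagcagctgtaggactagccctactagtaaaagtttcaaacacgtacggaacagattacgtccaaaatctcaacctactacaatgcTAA
mt-Cytb: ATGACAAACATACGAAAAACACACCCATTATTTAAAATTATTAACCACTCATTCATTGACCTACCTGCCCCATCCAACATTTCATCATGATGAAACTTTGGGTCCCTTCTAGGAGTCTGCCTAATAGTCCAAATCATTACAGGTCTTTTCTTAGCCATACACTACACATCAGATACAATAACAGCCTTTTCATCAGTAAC

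Withdrawal of serine and glycine changed individual mitochondrial genes in KO monocultures in both directions. Of 13, 3 rose and 2 fell, with a median of -0.05, beside 36.2% of all genes higher and 34.5% lower. mt-Cytb, the mitochondrially encoded subunit of complex III, went from 1722, 1752 and 1908 to 3966, 3288 and 3414 FPKM (0.98 ± 0.08, adjusted p = 7.74e-10), and quantile normalization gave 1.83. In KO cocultures it went from 1480, 1505 and 1508 to 3242, 2771 and 3346 FPKM (1.05 ± 0.08, adjusted p = 1.30e-08). All 6 KO libraries without serine and glycine were above the other 18, and the 2 changes differed by 0.07 ± 0.11 (adjusted p = 0.602). After quantile normalization the coculture change was 1.13 and the difference -0.69 with an adjusted p of 0.00252, so the changes were close without that normalization and not with it. In WT monocultures the change was -0.21 with an adjusted p of 0.232, and the KO to WT difference was 1.19 ± 0.11.

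mt-Co1, the catalytic subunit of complex IV, did the opposite in KO monoculture. It was at 11338, 7066 and 7774 FPKM with and 6094, 5167 and 5423 FPKM without serine and glycine (-0.62 ± 0.13, adjusted p = 2.59e-04). Without the high replicate 1 the change was -0.42, and quantile normalization reduced it to -0.14 with an adjusted p of 0.729. The ratio of mt-Cytb to mt-Co1 in FPKM, which does not depend on library scaling, was 0.651, 0.636 and 0.630 in these monocultures. It was 0.152 to 0.248 in the 18 other libraries, WT or with serine and glycine,, and 0.445, 0.272 and 0.363 in KO cocultures without both.

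In KO cocultures, withdrawal raised 6 of the 13 mitochondrial members and lowered none by limma (median 0.55), beside 15.5% of all genes higher and 14.4% lower, while 8 passed an unadjusted p of 0.05. mt-Nd1 went from 1803, 1820 and 1857 to 2470, 2717 and 2836 FPKM (0.55 ± 0.09). mt-Nd2 went from 1009, 1053 and 1078 to 1529, 2025 and 2188 FPKM (0.85 ± 0.12). mt-Nd4 went from 753.8, 758.6 and 801.7 to 1318, 1265 and 1518 FPKM (0.82 ± 0.10). Their groups did not overlap, whereas mt-Nd6, the one member transcribed from the other strand, was at 0.08 ± 0.15. Strand use in counting was not given, so reads counted for mt-Nd6 may include transcripts of the opposite strand. mt-Nd4l (1.24) and mt-Atp6 (0.78) passed as well, with the limits on shared sequence given above. mt-Atp6 lost its call without replicate 1 of the nutrient-replete libraries or replicate 2 or 3 of the deprived ones, with adjusted p from 0.0786 to 0.138.

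In KO monocultures the same genes gave -0.17 for mt-Nd1, 0.09 for mt-Nd2 and 0.45 for mt-Nd4, of which mt-Nd4 passed. mt-Nd4l (0.48) and mt-Nd5 (-0.32) passed as well, but each lost its call when any of several single libraries was left out, and mt-Nd5 was at 0.03 after quantile normalization. The test of the difference between the 2 cultures called 6 mitochondrial members, all with the larger value in coculture. They were mt-Nd1, mt-Nd2, mt-Nd4, mt-Nd4l, mt-Nd5 and mt-Co1. Nuclear members in that test were mostly lower in coculture, as given above, so the 2 genomes took opposite signs there, with medians of -0.64 and 0.59.

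**Figure D5:**
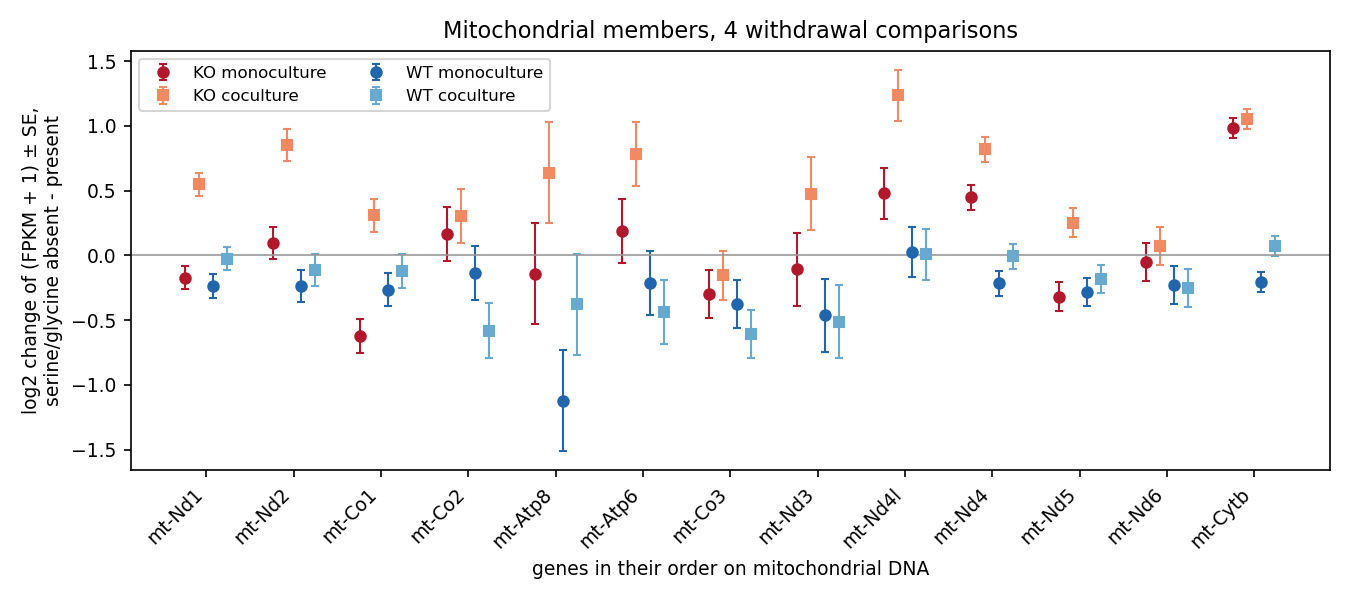
Log2 change of (FPKM + 1) with SE (vertical axis) on withdrawal of serine and glycine for the 13 mitochondrial members, in their order on mitochondrial DNA, in KO (red, orange) and WT (blue) monocultures (circles) and cocultures (squares). mt-Cytb lies near 1 in both KO cultures, and mt-Co1 lies at -0.62 in KO monoculture and 0.31 in KO coculture.

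Between KO and WT, 5 mitochondrial members were higher in monoculture without serine and glycine, beside 37.4% of all genes. In coculture without both 7 were higher, beside 26.3% of all genes, and in monoculture with both 0 were, while mt-Co2 was lower in coculture with both. In coculture without both, mt-Co1 (0.31, adjusted p = 0.0473) lost its call when any of 5 libraries was left out and was at 0.21 without KO replicate 2. There mt-Nd1 and mt-Atp6 also lost their calls under some of the alternatives run, with limma adjusted p up to 0.106 and 0.0527. mt-Co2 and, in monoculture without both, mt-Atp8 and mt-Nd2 also lost their calls when single libraries were left out. KO cocultures with both nutrients were lower than KO monocultures in 6 members, by 0.26 to 0.53, beside 19.9% of all genes. Of these, mt-Nd2, mt-Nd5, mt-Cytb and mt-Nd4l lost their calls when single libraries were left out, while mt-Nd1 and mt-Nd4 did not. The 2 mitochondrial ribosomal RNA genes moved apart in KO monoculture, with mt-Rnr2 at 0.56 and mt-Rnr1 at -0.86. Without replicate 2 of the nutrient-replete libraries mt-Rnr2 was at 0.38 with an adjusted p of 0.0508.

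Genes that serve the chain but are not subunits were read from lists of assembly factors, carriers, transcription regulators and citric acid cycle enzymes. On withdrawal in KO monoculture, 27 of 42 tested assembly factors rose and 7 fell, led by Cox14 (1.75) and Timmdc1 (1.63), with Coa3 (-1.03) the largest fall, beside 36.2% of all genes higher and 34.5% lower. Of 14 genes for ubiquinone and cytochrome c, 10 rose and 2 fell. Cycs, which encodes cytochrome c, changed by 1.89 ± 0.07, a 3.85-fold difference of mean FPKM. Of 13 citric acid cycle genes, 7 rose and 3 fell, with Idh3a at 0.86 and Suclg2 at -1.12. Of 29 genes for mitochondrial DNA and RNA, 10 rose and 6 fell, a share of rises near that of all genes, with the RNA processing enzyme Elac2 at 1.36 and the helicase Twnk at -0.75.

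The listed transcription regulators were fewer. Of 10 tested, 5 rose and 1 fell on withdrawal in KO monoculture, beside 36.2% of all genes higher and 34.5% lower. Myc was at 1.001 ± 0.067, Sp1 at 0.64, Gabpb1 at 0.63 and the coactivator Ppargc1a at -0.35. Ppargc1a was at -0.19 with an adjusted p of 0.142 without replicate 1 of the nutrient-replete libraries, and its adjusted p was 0.0546 without deprived replicate 2. In KO cocultures withdrawal gave 0 rises and 2 falls on that list, and 2 rises and 8 falls among assembly factors, beside 15.5% of all genes higher and 14.4% lower. All these lists were chosen with earlier results of the data known.

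Promoters were compared because many nuclear members moved together. Of 79 members, 65 matched a RefSeq promoter (GRCm38.p6), read from 250 bases before to 50 bases after the start. A 10-base NRF1 palindrome with 1 free position occurred in 24.6% of them and in 4.78% of 27025 promoters of the same length, on either strand. The ETS word CCGGAAG was in 23.1% against 9.12%, and the YY1 word AAGATGGC was in 13.8% against 2.88%. Among the 43 matched members that rose in KO monoculture on withdrawal these shares were 20.9, 18.6 and 18.6%, and among the 6 that fell 33.3, 16.7 and 0%. Other words were searched as well. The NRF1 palindrome without a free position was in 7.69% of members against 0.977% of all promoters. CRE (TGACGTCA) was in 6.15% against 1.88%, ERR (TCAAGGTCA) in 3.08% against 0.407% and the E-box (CACGTG) in 9.23% against 7.24%. For 51 of the 65, the 40 bases checked after the start lay in an annotated transcript. Member promoters also had a higher median GC content, 58.3% against 52.7%, and its part in the motif shares was not tested. A match is a description of letters and not a binding site.

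The promoters of 3 members that rose and hold a match show how the words sit. Of the 43 matched members that rose, 8 held the ETS word and 3 the NRF1 palindrome without a free position. Both shares were below those of all 65 matched members, and the Cox6a1 call was lost without single libraries, as given above. Capitals mark matches on either strand to the ETS word or to the NRF1 palindrome without a free position in the 250 bases before the start, printed in gene orientation (chr4:40279422-40279671 minus strand for Ndufb6, chr2:90904722-90904971 minus strand for Ndufs3 and chr5:115348959-115349208 minus strand for Cox6a1).
Ndufb6: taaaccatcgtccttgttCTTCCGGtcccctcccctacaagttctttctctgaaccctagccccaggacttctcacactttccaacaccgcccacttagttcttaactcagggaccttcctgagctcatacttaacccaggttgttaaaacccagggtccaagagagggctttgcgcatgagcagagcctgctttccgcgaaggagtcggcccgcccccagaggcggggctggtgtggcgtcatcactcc
Ndufs3: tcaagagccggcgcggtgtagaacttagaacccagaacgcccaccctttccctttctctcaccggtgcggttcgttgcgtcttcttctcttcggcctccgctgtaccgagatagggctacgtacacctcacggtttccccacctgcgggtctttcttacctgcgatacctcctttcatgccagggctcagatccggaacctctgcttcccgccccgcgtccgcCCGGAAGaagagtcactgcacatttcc
Cox6a1: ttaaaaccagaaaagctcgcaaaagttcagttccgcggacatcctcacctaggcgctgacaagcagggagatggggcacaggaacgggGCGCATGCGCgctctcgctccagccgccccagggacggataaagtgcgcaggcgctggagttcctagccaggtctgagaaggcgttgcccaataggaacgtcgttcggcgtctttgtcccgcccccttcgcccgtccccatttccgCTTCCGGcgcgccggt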

How the data were processed

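The authors deposited 1 table of FPKM for 54532 genes in 24 columns, with GRCm38 positions and gene lengths, per the file headers. Reads were aligned with HISAT2 to GRCm38 (mm10), per the submitters' processing notes; version, annotation, counting and strand use were not given in the sources used here. Deposited FPKM times gene length were whole multiples of a step per library (100% of values to within 0.01), from which reads were recovered. Genes at 1 FPKM or more in at least 3 libraries were kept. Values were analysed as log2(FPKM + 1) with limma 3.58.1 in R 4.3.3 (trend, 8 group means, 16 residual degrees of freedom, two-sided, Benjamini-Hochberg over 12061 genes), with a call at an adjusted p under 0.05. Fold changes on this scale understate low genes. Other scalings, filters, pseudocounts, a length correction, a replicate block and left-out libraries were tried. The fits were also run on simulated data in which few genes changed and genes varied independently, unlike here. That run does not bear on outlying libraries or on comparisons with many genes called. Same-numbered KO monocultures with and without serine and glycine deviated together (correlations 0.40, 0.28 and 0.11), which met the rule used for pairing. Other groups did not meet this rule. Against KO cocultures without both nutrients, the correlations were -0.63, -0.52 and 0.0003 for KO monocultures with both. For KO monocultures without both they were -0.34, -0.26 and -0.01. Outlying libraries were not separated from pairing here, so paired cultures were not established.

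The members and lists were chosen with earlier results of these data known. Named genes were the mitochondrial members, complex II, isoform sets, the 5 largest nuclear rises and falls without overlap per comparison, and 3 per pathway list and direction. Shared sequence was searched in GENCODE vM21 transcripts, not the genome. The result of 1 member is not reported here.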

Additional observations from a re-analysis of the deposited data

Results flagged for a closer look

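The results here were marked because the effect of one factor differed between groups by a test of the difference itself, with limma over all genes. The response to serine and glycine withdrawal differed between KO and WT monocultures for 48 of 79 nuclear and 2 of 13 mitochondrial members, where 61.2% of all genes were called. The nuclear share was near that of all genes, and the mitochondrial share was below it. Most nuclear calls had the larger value in KO, as given above, beside 31.4% of all genes higher and 29.8% lower. The mitochondrial members called were mt-Cytb (1.19) and mt-Nd4 (0.66), on the log2 scale as KO minus WT. The nuclear members with the largest differences on that scale were Ndufb6 (1.86), Cox5a (1.59) and Atp5g1 (1.56).

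The response in KO cells differed between coculture and monoculture for 55 of 79 nuclear and 6 of 13 mitochondrial members, where 57.7% of all genes were called. As coculture minus monoculture, mt-Co1 differed by 0.93, mt-Nd2 by 0.76, mt-Nd4l by 0.76, mt-Nd1 by 0.72, mt-Nd5 by 0.57 and mt-Nd4 by 0.37. Most nuclear members called took the other sign, with Ndufb6 at -2.21 ± 0.41 SE, Atp5k at -1.99 ± 0.74 and Cox7a2 at -1.74 ± 0.12. Atp5k was the least certain of these by limma (adjusted p = 0.0275). The nuclear members Cox6a2 (0.94), Cox7a2l (0.86), Ndufa6 (0.75), Atp5h (0.47) and Atp5a1 (0.31) were called with the same sign as the mitochondrial members. The mt-Nd4 and mt-Nd4l differences each lost the call when any of 5 libraries was left out, not the same 5 for both.

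The effect of coculture with serine and glycine present differed between genotypes for 1 nuclear member, Ndufs8 (0.30), where 10.4% of all genes were called. Ndufs8 was lower in coculture in both genotypes.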

How the results depend on the processing

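Of 140 calls of named members, 93 passed under every alternative run. Among 2281 alternative values for them, 212 lost the threshold and 1 changed sign: mt-Nd5 on withdrawal in KO monoculture, at 0.0309 with an adjusted p of 0.828 after quantile normalization. Fitting the groups of a contrast alone gave 15 members for KO against WT in monoculture with serine and glycine, 51 in coculture with both, 2 for withdrawal in WT monoculture, 13 for withdrawal in KO coculture, 22 for coculture in WT cells without both and 10 in KO cells with both. Leaving out replicate 1 of both KO monoculture groups gave 42, 2, 46 and 20 for KO against WT in coculture with both nutrients, withdrawal in WT monoculture, withdrawal in KO coculture and coculture in WT cells without both. With no filter, coculture in WT cells with both gave 13. The length correction, alone or with the replicate block, gave 0 for the genotype by coculture difference. Leaving out libraries 1 at a time gave 14 to 48 members for withdrawal in KO coculture, 11 to 17 and 5 to 9 for coculture in WT cells with and without both, and 1 to 2 for the genotype by coculture difference. For withdrawal in KO monoculture these fits gave 53 to 66 and all alternatives 45 to 67. The replicate block gave each replicate number a shared effect over all groups, so it was not a test of pairing between these monocultures. It left the count for withdrawal in KO monoculture at 63, with Uqcrfs1 lost, Ndufs5 gained and no other member's call changed. Except with the length correction, the block moved no count by over 1.5 times. Depth limits mt-Atp8 and mt-Nd3, with 227 and 493 reads in all.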
